A study of Mus musculus with 4 samples.

Results

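A set of 7 enzyme genes that myeloid cells use to make or limit reactive small molecules was followed through cells of the mouse central nervous system. They are Arg1, Nos2, Acod1, Cybb, Cyba, Ncf1 and Ncf4, 7 of the 41862 gene columns of the count tables, and they were chosen by name. Each was read in microglia-like, monocyte-like and border-macrophage-like cells, among 7899 of 12987 barcodes that held at least 500 unique molecular identifiers (UMIs, each standing for 1 captured RNA molecule) and at most 20% mitochondrial counts.

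The study used Aldh1l1CreERT2-TdTomato mice on the C57BL6 background, in which a tamoxifen-inducible Cre under the promoter of the astrocyte gene Aldh1l1 switches on a red reporter. It compared naive mice (n = 3) with mice in the peak phase of EAE (experimental autoimmune encephalomyelitis, n = 3), a model of multiple sclerosis that was set off by injecting 150 µg of the myelin peptide MOG35-55 in complete Freund's adjuvant (CFA). Cells of all 4 groups were sorted for TdTomato and for the lysosomal protein LAMP1 at the surface, and then by TRAIL, a ligand that can trigger apoptosis, into TRAIL- and TRAIL+. The groups are named below in a fixed order, naive TRAIL-, then naive TRAIL+, then EAE TRAIL-, and last EAE TRAIL+. Each was 1 inDrops v3 library, so no replicate error could be measured, no test was possible, and all intervals below cover counting error only, with several UMIs often coming from 1 cell. The sources used here do not say how the mice were divided over the libraries, nor their age, sex or tamoxifen dosing.

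The labels call the sorted cells astrocytes, and the RNA went against that. Astrocyte-like cells were 1.55%, 6.55%, 0.188% and 0.441% of the kept barcodes in the order of groups above. The myeloid clusters described here held 15.1%, 88.1%, 33.4% and 98.2%, and most other cells of the TRAIL- libraries were endothelial-like or pericyte-like. Median depth was 949, 1505, 1191 and 1907.5 UMIs per barcode, and any 2 libraries shared 23 to 40 barcode sequences.

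Microglia-like cells numbered 318, 1863, 115 and 910, and carried P2ry12 at 2161 CPM (the UMIs of a gene per 1000000 UMIs of the class). Monocyte-like cells numbered 18, 20, 233 and 133, with Ccr2 at 522 CPM, Ly6c2 at 472 CPM, Plac8 at 2985 CPM and P2ry12 at 80.1 CPM. Border-macrophage-like cells numbered 2, 58, 1 and 17, with Mrc1 at 3081 CPM and Pf4 at 1567 CPM. A further cluster of 4, 22, 185 and 721 cells, led by Cd74, C4b and Hcar2, held P2ry12 at 1052 CPM and the dendritic cell genes Flt3 and Zbtb46 at only 8.74 and 5.65 CPM. It was given no cell type name and is called the Cd74-high cluster. Its Cd74, at 4683 CPM, was above the 201 CPM of microglia-like cells but below the 7973 CPM of monocyte-like cells. The name thus does not mean the highest Cd74 of the clusters.

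Arginase 1 (Arg1) splits arginine into urea and ornithine, and inducible nitric oxide synthase (Nos2) makes nitric oxide from the same arginine. Acod1 encodes the enzyme that makes itaconate from cis-aconitate of the citric acid cycle. The phagocyte NADPH oxidase moves electrons across a membrane onto oxygen to form superoxide: its catalytic subunit gp91phox is encoded by Cybb and the partner p22phox by Cyba, while p47phox (Ncf1) and p40phox (Ncf4) join from the cytosol when the cell is activated. In macrophages, Nos2 and Acod1 are known as genes switched on by interferon and bacterial signals, and Arg1 as a gene switched on by interleukin-4, lactate or hypoxia.

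RefSeq promoter entries (build GRCm38.p6) were held for 4 of the 7 genes, and those 4 windows are shown because each of these genes differed in level between the cell classes described below. Each reads 5′ to 3′ on the gene's strand and ends just before the start of the RefSeq transcript, except that of Acod1, which ends 36 bases before it because exon bases were left out. Capitals mark matches to any of 7 motifs searched on both strands.

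Acod1, chr14:103046762-103046976, plus strand: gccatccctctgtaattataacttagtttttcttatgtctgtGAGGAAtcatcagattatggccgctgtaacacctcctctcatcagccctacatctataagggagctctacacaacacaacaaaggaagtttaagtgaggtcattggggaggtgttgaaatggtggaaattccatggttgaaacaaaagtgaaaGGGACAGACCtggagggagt

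Cybb, chrX:9469325-9469574, minus strand: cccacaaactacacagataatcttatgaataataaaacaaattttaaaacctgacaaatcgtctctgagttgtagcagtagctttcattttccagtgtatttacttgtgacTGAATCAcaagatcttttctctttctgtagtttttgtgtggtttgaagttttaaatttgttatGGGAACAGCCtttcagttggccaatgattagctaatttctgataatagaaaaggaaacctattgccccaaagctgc

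Cyba, chr8:122432941-122433190, minus strand: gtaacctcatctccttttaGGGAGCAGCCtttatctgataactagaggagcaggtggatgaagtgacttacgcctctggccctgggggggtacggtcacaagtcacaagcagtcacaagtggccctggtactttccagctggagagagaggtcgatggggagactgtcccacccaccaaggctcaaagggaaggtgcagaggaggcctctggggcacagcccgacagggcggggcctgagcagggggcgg

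Ncf1, chr5:134229626-134229875, minus strand: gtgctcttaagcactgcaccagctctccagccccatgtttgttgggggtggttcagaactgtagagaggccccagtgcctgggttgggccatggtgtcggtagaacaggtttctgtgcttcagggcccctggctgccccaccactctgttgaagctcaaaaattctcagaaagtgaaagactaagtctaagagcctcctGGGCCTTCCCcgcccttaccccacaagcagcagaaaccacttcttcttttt

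All 4 windows held an NF-kB-type match (GGGA, then 4 of any base, then CC), which 17.6% of the 32851 RefSeq promoter windows of 250 bases also held (15.1% of windows cut to the 215 bases shown for Acod1). In Ncf1 that match lay on the opposite strand, as GGGCCTTCCC. The other matches were the PU.1-type letters GAGGAA in Acod1 (19.96% of windows of that length) and the AP-1 letters TGANTCA in Cybb (6.75% of windows). The STAT6-type letters (TTC and GAA around 4 of any base), the C/EBP letters TTGCNNAA, the TATA box TATAAA and the hypoxia response letters GCGTG were not found in these windows, and are in 5.85%, 9.56%, 12.4% and 28.2% of all 250-base windows. No match overlapped another, and a match describes letters only.

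In GENCODE release M21 on GRCm38 all 7 are protein-coding genes. Arg1 lies on chromosome 10 (24915221 to 24927484, minus strand), Nos2 on 11 (78920787 to 78960254, plus), Acod1 on 14 (103046977 to 103056573, plus) and Ncf4 on 15 (78244801 to 78262580, plus). Cybb lies on X (9435252 to 9487771, minus), Cyba on 8 (122424776 to 122432930, minus) and Ncf1 on 5 (134220053 to 134229625, minus). The Cybb promoter window above lies within that span, since the GENCODE gene starts farther upstream than the RefSeq transcript. Ncf1 shares 408 exon bases with Gtf2ird2 on the other strand, and the sources used here do not say whether the counting used strand. Gtf2ird2 itself was at 12.9 CPM in microglia-like and 1.84 CPM in monocyte-like cells.

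Arg1 was read almost wholly in the monocyte-like cells of the 2 EAE libraries. These held 523 Arg1 UMIs in EAE TRAIL- (854 CPM) and 862 in EAE TRAIL+ (2270 CPM), 96.3% and 98.1% of all Arg1 UMIs of those libraries. The 18 and 20 naive monocyte-like cells held none, which at this depth allows up to 62.4 and 66.3 CPM. Microglia-like cells held 0, 3, 0 and 8 Arg1 UMIs in the order of groups above, and the highest of those levels was 4.52 CPM. Border-macrophage-like cells held none, and the Cd74-high cluster held 8, all in EAE TRAIL+ (5.30 CPM).

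Nos2 had the same source. Monocyte-like cells held 123 Nos2 UMIs in EAE TRAIL- (201 CPM) and 89 in EAE TRAIL+ (234 CPM), 93.9% and 91.8% of the libraries' Nos2 UMIs, and none in either naive library. No microglia-like, Cd74-high or border-macrophage-like group of at least 17 cells held more than 5 Nos2 UMIs. Few cells carried it: the 5 highest cells gave 46.3% of the Nos2 UMIs of EAE TRAIL- monocyte-like cells and 68.5% of those of EAE TRAIL+.

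Acod1 was spread more widely. Monocyte-like cells held 463 Acod1 UMIs in EAE TRAIL- (756 CPM) and 82 in EAE TRAIL+ (216 CPM), which were 90.3% and 43.6% of the libraries' Acod1 UMIs. Much of the rest lay in the Cd74-high cluster, with 44 UMIs in 15 of 185 cells of EAE TRAIL- (111 CPM) and 81 UMIs in 25 of 721 cells of EAE TRAIL+ (53.6 CPM). In these cells too a few carried most of it, since the 5 highest gave 72.7% and 54.3%. Microglia-like cells of EAE TRAIL+ held 25 UMIs in 12 of 910 cells (14.1 CPM), and naive ones held 1 and 5 in all. Among naive monocyte-like cells the TRAIL- library had 23 Acod1 UMIs in a single cell and the TRAIL+ library 5 in 2 cells.

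Droplets also catch RNA free in the suspension, and the shares of endothelial-like cells with Arg1 or Acod1 are given as a background level. Nos2 was read in 2.25% of endothelial-like cells of naive TRAIL- as well, so their Nos2 share is no measure of free RNA. In EAE TRAIL-, 0.602% of 498 endothelial-like cells had an Arg1 UMI, 1.20% a Nos2 UMI and 0.402% an Acod1 UMI at a median of 1043.5 UMIs per cell. Monocyte-like cells of that library had one in 23.2% (95% exact binomial interval 17.9 to 29.1), 11.6% (7.78 to 16.4) and 40.3% (34.0 to 46.9) at a median of 2688 UMIs. After thinning every cell to 500 UMIs the monocyte-like shares were 17.2%, 5.58% and 18.5%, against 0.402%, 0.402% and 0% in endothelial-like cells. The Cd74-high cells of the same library held 44 Acod1 UMIs beside 0 of Arg1 and 0 of Nos2, whereas its monocyte-like cells held 463 of Acod1 beside 523 of Arg1 and 123 of Nos2.

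**Figure D1:**
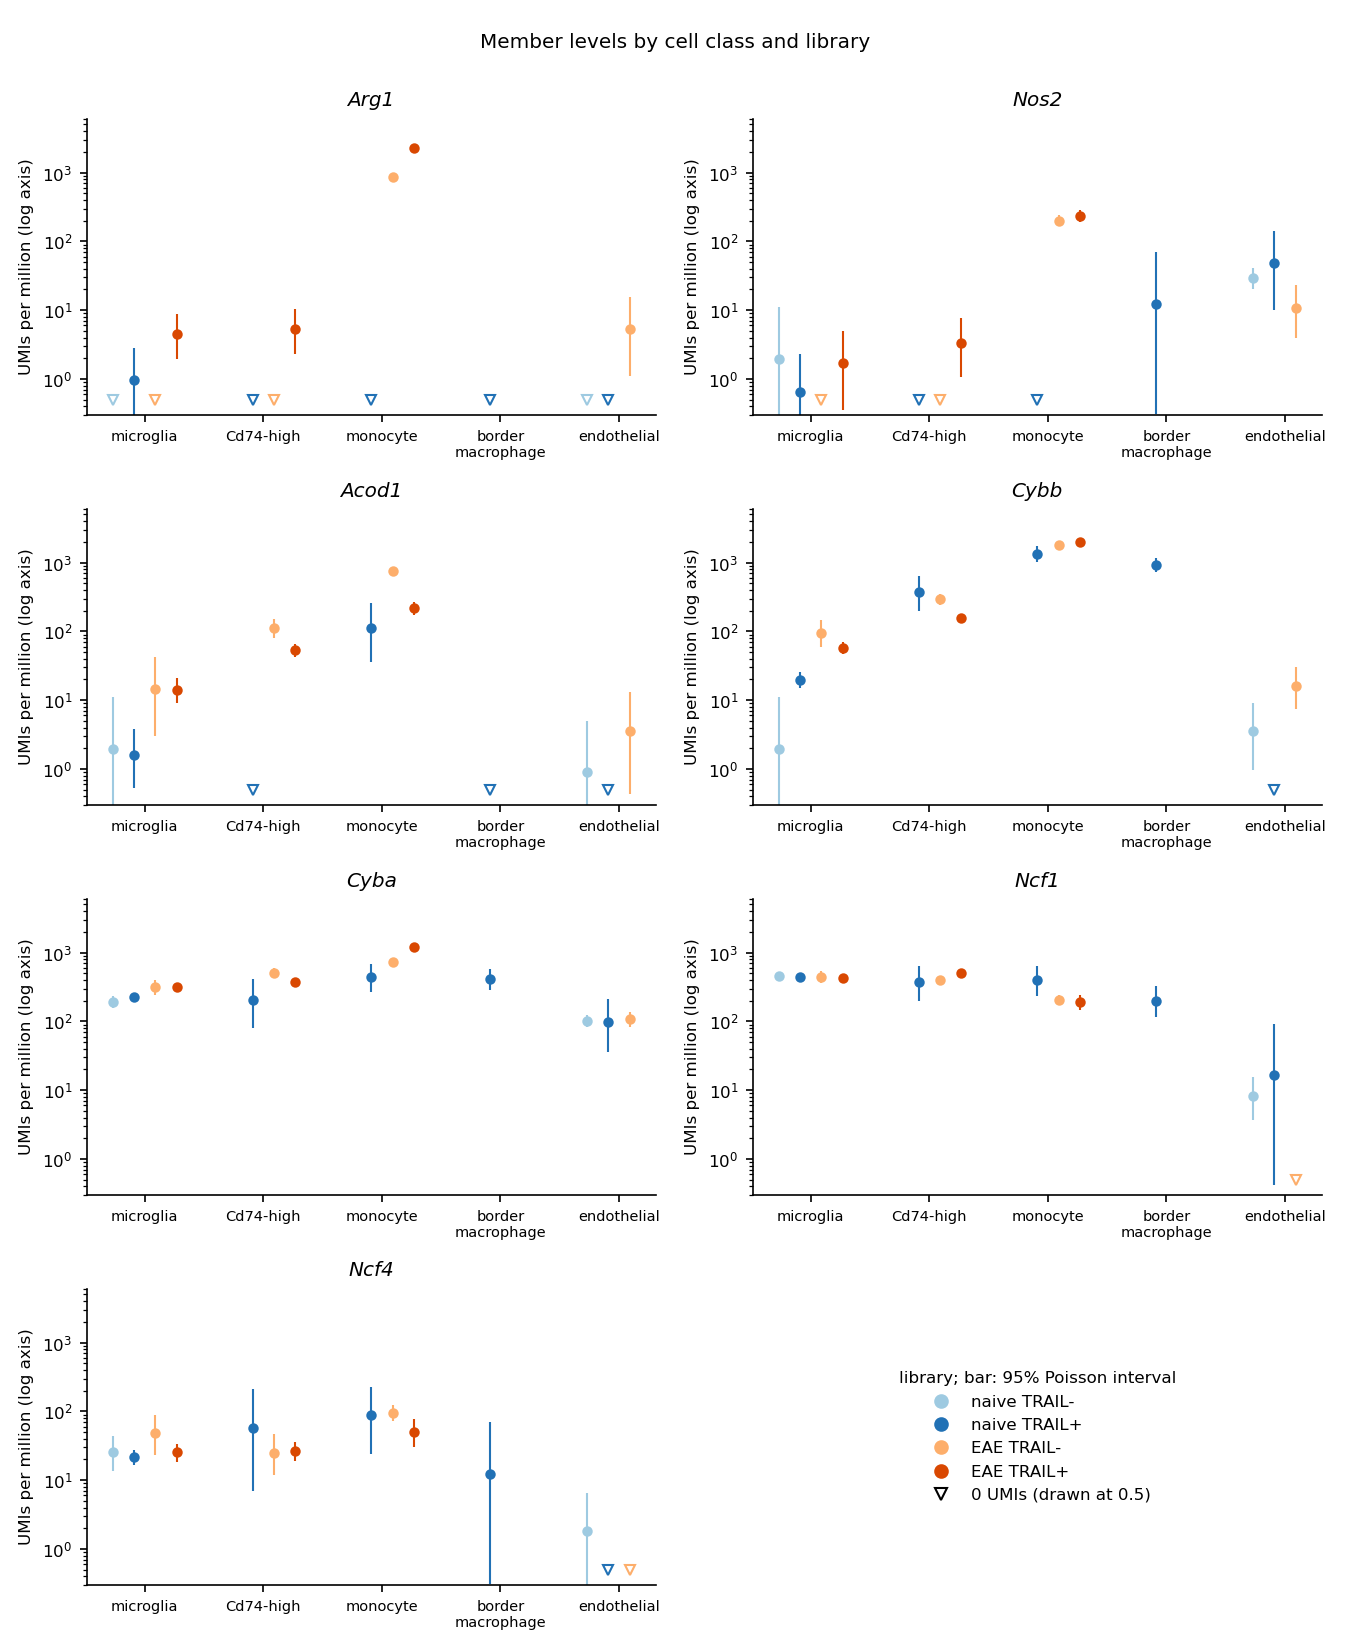
CPM (log axis) of each of the 7 genes by cell class (x axis) and library (colour), drawn for class and library pairs with at least 20 cells. Bars are 95% Poisson intervals and open triangles stand for 0 UMIs. Arg1 and Nos2 reached 854 to 2270 and 201 to 234 CPM in EAE monocyte-like cells only among the myeloid groups drawn, whereas Ncf1 stayed between 422 and 451 CPM in all 4 microglia-like groups.

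The oxidase genes split by subunit. Cybb, for the catalytic subunit, was at 1820 CPM in EAE TRAIL- and 1965 CPM in EAE TRAIL+ monocyte-like cells, where 75.1% and 79.7% of cells had a UMI. Naive monocyte-like cells, from few cells, stood at 3078 CPM for TRAIL-, much of it from a single cell, and 1348 CPM for TRAIL+. Border-macrophage-like cells followed, with 922 CPM in the naive and 674 CPM in the EAE library of the TRAIL+ gate. Microglia-like cells had 1.98, 19.8, 96.3 and 57.1 CPM in the order of groups, and the Cd74-high cluster 375, 292 and 159 CPM in the last 3 of them.

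Cyba, for the partner that holds the catalytic subunit in the membrane, was found in all 4 myeloid clusters. It ran from 192 to 318 CPM in microglia-like cells and from 442 to 1196 CPM in monocyte-like cells, with 411 and 1011 CPM in border-macrophage-like cells of naive TRAIL+ and EAE TRAIL+. Endothelial-like cells, which are known to use p22phox with other oxidases, had 98.4 to 108 CPM in the 3 libraries with at least 20 of them. Every myeloid group with at least 17 cells thus stood above those.

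Ncf1, for the cytosolic organiser, ran the other way. Microglia-like cells had 451, 442, 448 and 422 CPM in the 4 groups. The EAE monocyte-like cells had 206 and 190 CPM, and border-macrophage-like cells 199 and 168 CPM. Naive TRAIL+ monocyte-like cells, at 398 CPM from 18 UMIs, overlapped the microglia-like range. Ncf4, for the other cytosolic subunit, was sparse everywhere: 21.8 to 48.1 CPM in microglia-like cells and 50.04 to 104 CPM in monocyte-like cells, and a single UMI in the border-macrophage-like cells.

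Set side by side within EAE TRAIL+, monocyte-like over microglia-like cells, the ratio was 502 for Arg1 (95% interval 254 to 1167), 138 for Nos2 and 15.3 for Acod1. It was 34.4 for Cybb (27.9 to 42.8), 3.81 for Cyba and 1.97 for Ncf4 (1.09 to 3.43), and Ncf1 was 2.23-fold lower. Of the 7 members, 6 had a mean of at least 50 CPM over both sides and at least 20 UMIs, and of these 5 were at least 2-fold higher and 1 lower, where 17% of all genes at those minimums were at least 2-fold higher and 16.4% lower. Arg1, Nos2 and Acod1 met the minimum only through the monocyte-like side, so the count over members shows no more than the levels do. With cells picked by markers per barcode in place of clusters, the ratios of Arg1 and Cybb were 260 and 21.4.

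EAE TRAIL- gave the same directions. Cybb was 18.9-fold higher, Acod1 52.3-fold, Cyba 2.31-fold and Ncf4 1.97-fold (0.997 to 4.32) higher in monocyte-like cells, Ncf1 was 2.18-fold lower, and Arg1 and Nos2 were at least 59.1-fold and 13.9-fold higher against a floor of 3 UMIs in the microglia-like cells of that library. At a finer clustering the Cybb ratio there was 11.5. All 7 members met the minimums, with 5 at least 2-fold higher and 1 lower, against 20.5% and 20.1% of all genes. As in TRAIL+, Arg1, Nos2 and Acod1 met them only through the monocyte-like side (0, 0 and 3 UMIs in microglia-like cells), so that count too shows no more than the levels do. The high ratios of Arg1, Nos2, Acod1 and Cybb and the low ratio of Ncf1 were thus read in both EAE libraries.

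Border-macrophage-like cells of naive TRAIL+ had 46.5-fold more Cybb than microglia-like cells (32.7 to 66.4) and 1.80-fold more Cyba, and 2.22-fold less Ncf1. Of the 3 members that met the minimums, 1 was at least 2-fold higher and 1 lower, against 19.8% and 13.5% of all genes. The higher member, Cybb, met the minimum CPM only through the border-macrophage-like side, so nothing is read from that count. Naive TRAIL+ monocyte-like cells had 1.46-fold more Cybb than the border-macrophage-like ones (1.02 to 2.08). These were only 20 cells of mixed markers. Their monocyte markers summed to 14448 CPM, beside 53705 CPM of neutrophil and 45774 CPM of MHC class II and dendritic cell markers. The part of those markers in the ratio was not tested.

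The TRAIL sort divided the EAE monocyte-like cells by Arg1 and Acod1. Arg1 was 2.66-fold higher in TRAIL+ than in TRAIL- (2.38 to 2.97), and Acod1 was 3.50-fold lower (2.76 to 4.48). Cyba was 1.63-fold higher (1.43 to 1.86) and Ncf4 1.89-fold lower (1.11 to 3.36). Cybb (1.08, 0.983 to 1.19), Nos2 (1.17, 0.879 to 1.55) and Ncf1 (0.922, 0.680 to 1.24) had intervals that reach 1. All 7 members met the minimums, 1 at least 2-fold higher and 1 lower, where 5.51% of 3177 genes were at least 2-fold higher and 6.33% lower.

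The same difference was seen in shares of cells. Among TRAIL+ cells 60 of 133 (45.1%) had an Arg1 UMI, against 54 of 233 (23.2%) among TRAIL-, and for Acod1 the shares were 24.8% and 40.3%. Thinned to 500 UMIs the shares were 33.8% and 17.2% for Arg1 and 10.5% and 18.5% for Acod1, in the same direction. The 5 highest cells gave 33.8% of the Arg1 UMIs in TRAIL+ and 31.0% in TRAIL-. For Acod1 they gave 39.0% and 23.5%.

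Other markers moved with the TRAIL sort in these cells. The summed level of the 17 microglia markers was 10723 CPM in TRAIL+ and 3096 CPM in TRAIL-, that of the 16 monocyte markers 20298 and 28590 CPM, that of the 17 MHC class II and dendritic cell markers 28825 and 14782 CPM, and that of the 11 neutrophil markers 340 and 596 CPM. One sub-cluster had the highest level of microglia markers (18086 CPM, against at most 7410 CPM in the others), was led by Ccl12 and P2ry12, and held 39 of the 133 TRAIL+ and 9 of the 233 TRAIL- cells. Without it, an alternative chosen after seeing the data, Arg1 was 3.45-fold higher in TRAIL+ (3.08 to 3.87), Nos2 1.66-fold higher (1.24 to 2.22) and Acod1 0.278 times the TRAIL- level. Those intervals cover counting error only, and Nos2 came from few cells. The part of those cells and of the other marker differences was not tested.

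**Figure D2:**
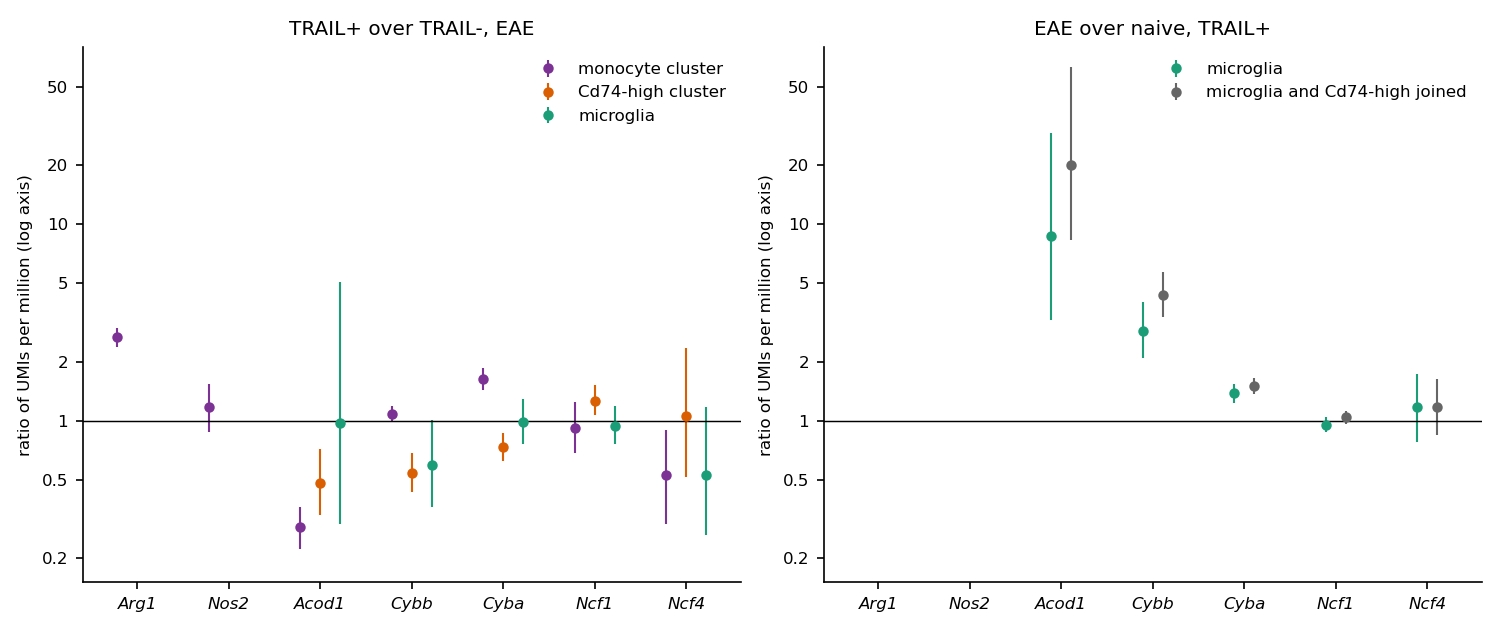
Ratios of CPM (log axis) for each gene (x axis), TRAIL+ over TRAIL- in EAE on the left and EAE over naive in the TRAIL+ gate on the right, with 95% counting intervals and a line at 1. A ratio is drawn only where counts allow it; on the left Arg1 stands at 2.66 and Acod1 at 0.286 in monocyte-like cells, and on the right Cybb stands at 2.88 and Ncf1 at 0.955 in microglia-like cells.

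Sub-clusters of the monocyte-like cells, which were found without the 7 genes but on the same cells and so are given as a description only, differed in their levels of Arg1, Nos2 and Acod1. Arg1 was highest, at 3601 CPM, in sub-cluster 3, led by Spp1 and Fabp5, and lowest, at 427 CPM, in sub-cluster 1, led by the monocyte gene Vcan. Acod1 was lowest in sub-cluster 3 (113 CPM) and highest in sub-cluster 5, led by Cd24a, Upp1 and Inhba (1179 CPM), and in sub-cluster 4, led by the interferon-induced genes Ifit1 and Ifit2 (855 CPM). By share of cells, Acod1 was lowest in the sub-cluster with microglia markers (18.8%), against 27.3% in sub-cluster 3. Nos2 was at 692 CPM in sub-cluster 5 and at most 192 CPM in the other 6. Sub-cluster 5 also had the highest summed level of neutrophil markers, 1274 CPM against at most 496 CPM in the others, and their part in its Nos2 and Acod1 was not tested. Cybb ranged only from 1375 CPM, in the sub-cluster with microglia markers, to 2342 CPM.

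The gates filled these sub-clusters unequally. Sub-cluster 3 held 26 TRAIL+ and 7 TRAIL- cells, sub-cluster 4 held 3 and 65, and sub-cluster 5 held 13 and 51. Within TRAIL+ alone, Arg1 was at 3960 CPM in sub-cluster 3 (3568 to 4384) and 3723 CPM in sub-cluster 5 (3175 to 4338), intervals that overlap. Acod1 was at 106 and 409 CPM in the same cells. In sub-cluster 0 (21 TRAIL+ and 42 TRAIL- cells, led by Ccnd2, Traf1 and H2-Eb1) Arg1 was at 2366 CPM in TRAIL+ and 1112 CPM in TRAIL-, and Acod1 at 204 and 505 CPM. In sub-cluster 2 (30 and 31 cells, led by Gpnmb and Fabp5) Arg1 was at 1537 and 888 CPM, and Acod1 at 284 and 276 CPM. Sub-cluster 0 had MHC class II and dendritic cell markers at 47285 CPM against 17652 CPM of monocyte markers over all 4 libraries. Without it, an alternative added after seeing the data, Arg1 was 2.79-fold higher in TRAIL+ (2.47 to 3.15) and Acod1 0.273 times the TRAIL- level (0.209 to 0.351). Arg1 CPM was thus higher in TRAIL+ within both sub-clusters with at least 20 cells of each gate, and Acod1 CPM lower within 1 of them. In sub-cluster 2 the shares of cells with Arg1 were close, 13 of 30 in TRAIL+ and 12 of 31 in TRAIL-. In sub-cluster 0 Acod1 rested on 10 UMIs in 4 TRAIL+ cells (97.8 to 375 CPM) and 45 UMIs in 12 TRAIL- cells (369 to 676 CPM), intervals that overlap. The part of sub-cluster make-up in the gate differences was not tested.

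**Figure D3:**
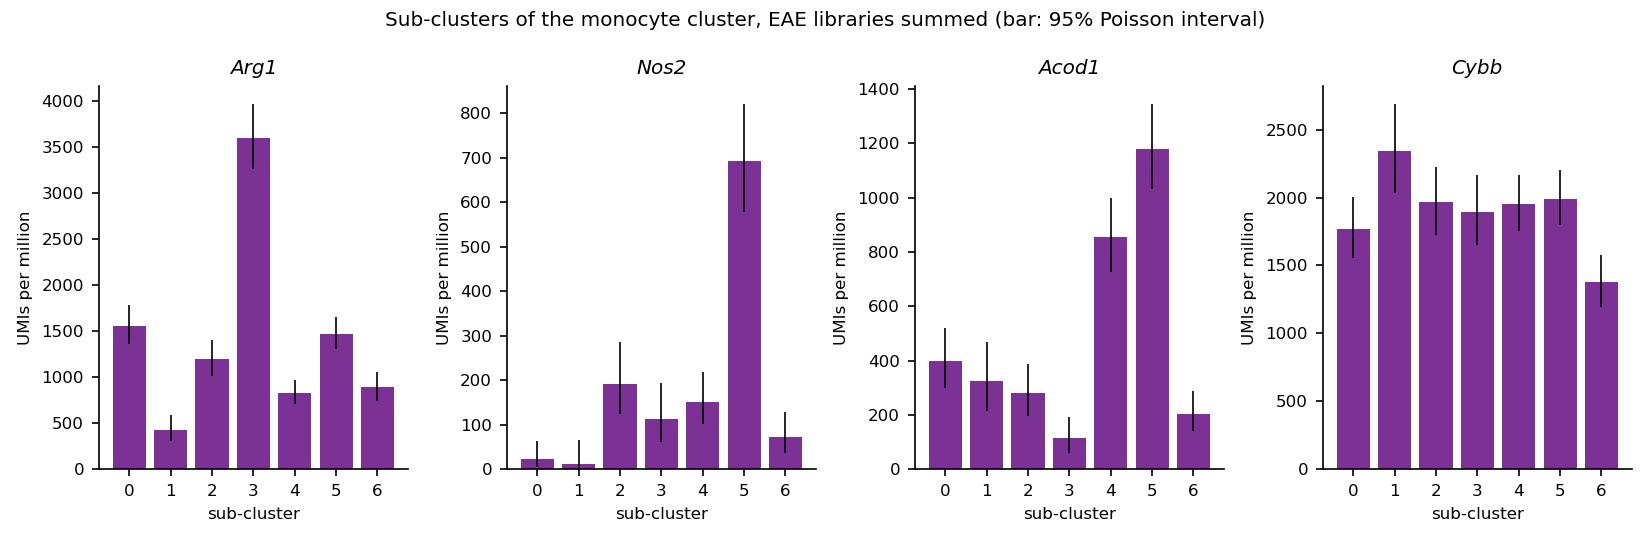
CPM of Arg1, Nos2, Acod1 and Cybb (separate y axes, each from 0) in the 7 sub-clusters of EAE monocyte-like cells (x axis), both gates summed, with 95% Poisson intervals. With both gates summed, Arg1 peaked in sub-cluster 3 at 3601 CPM, where Acod1 was lowest at 113 CPM, and Nos2 and Acod1 both peaked in sub-cluster 5. Within TRAIL+ alone (not drawn), Arg1 was at 3960 CPM in sub-cluster 3 and 3723 CPM in sub-cluster 5.

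Arg1, Nos2 and Acod1 were found together in some cells, and how often depended on depth. With all UMIs, 6 of the 233 cells of TRAIL- and 6 of the 133 of TRAIL+ had a UMI of all 3 genes, and 42.9% of cells in each gate had none of them. An Acod1 UMI was found in 17 of 27 TRAIL- cells with Nos2 (63.0%, 42.4 to 80.6) against 37.4% of cells without Nos2, and in 10 of 18 TRAIL+ cells with Nos2 (55.6%, 30.8 to 78.5) against 20%. Cells with Nos2 were deeper, with medians of 3259 and 3811.5 UMIs against 2470.5 and 2579 in cells without it.

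After thinning to 500 UMIs only 13 TRAIL- and 9 TRAIL+ cells still had Nos2, and 1 in each gate also had Acod1. Those shares, 7.69% (0.195 to 36.0) and 11.1% (0.281 to 48.2), stood beside 19.1% and 10.5% of cells without Nos2. So few cells cannot show whether Nos2 and Acod1 paired more often at equal depth. No thinned cell had all 3 genes. With at least 2 UMIs per gene and no thinning, 9 of 21 TRAIL- cells with Nos2 had Acod1 (42.9%, 21.8 to 66.0), against 27.4% (21.5 to 33.9). In TRAIL+ it was 4 of 13 (30.8%, 9.09 to 61.4), against 12.5% (7.17 to 19.8). Those intervals overlap, and the cells with Nos2 were again deeper.

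Arg1 and Acod1 overlapped less evenly. With all UMIs 21 of 54 TRAIL- cells with Arg1 had Acod1 (38.9%), against 40.8% of cells without Arg1, and 20 of 60 TRAIL+ cells (33.3%), against 17.8%. Thinned, the shares were 3 of 40 in TRAIL- (7.50%, 1.57 to 20.4) against 20.7% (15.2 to 27.1), and 6 of 45 in TRAIL+ (13.3%) against 9.09%. The 2 gates thus lay on opposite sides, with intervals that overlap those of the cells without Arg1. Arg1 and Nos2 met in 18.5% of Arg1 cells in TRAIL- and 18.3% in TRAIL+, against 9.50% and 9.59% of the others. After thinning they met in 4 of 40 Arg1 cells in TRAIL- (10%, 2.79 to 23.7), against 4.66% (2.15 to 8.67). In TRAIL+ they met in 5 of 45 (11.1%, 3.71 to 24.1), against 4.55% (1.25 to 11.2). This pair kept its direction in both gates, with thinned intervals that overlap.

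**Figure D4:**
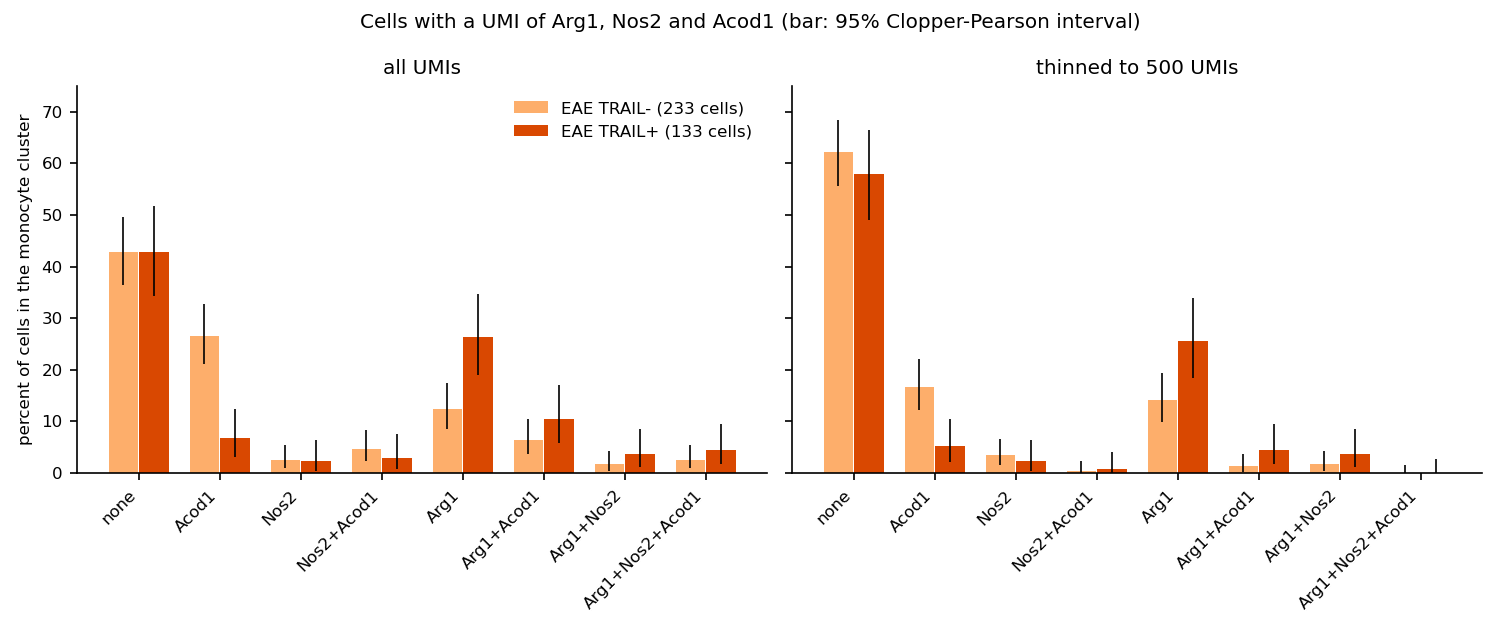
Percent of EAE monocyte-like cells (y axis) with a UMI of none, 1, 2 or all 3 of Arg1, Nos2 and Acod1 (x axis), TRAIL- and TRAIL+ side by side, with all UMIs on the left and thinned to 500 UMIs on the right; bars are 95% Clopper-Pearson intervals. Acod1 alone was found in 26.6% of TRAIL- and 6.77% of TRAIL+ cells, and Arg1 alone in 12.4% and 26.3%, with all UMIs.

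Cells with 1 gene and cells with several were also counted apart. Acod1 alone was found in 26.6% of TRAIL- and 6.77% of TRAIL+ cells, and Arg1 alone in 12.4% and 26.3%. Arg1 with Acod1 but without Nos2 was found in 6.44% and 10.5%, Arg1 with Nos2 but without Acod1 in 1.72% and 3.76%, and all 3 genes in 2.58% and 4.51%. In the microglia-like and Cd74-high cells of the 4 libraries no cell had both Arg1 and Acod1, and 1 Cd74-high cell of EAE TRAIL+ had Nos2 with Acod1. An Arg1 UMI was found in only 3 of 1863 naive TRAIL+ and 5 of 910 EAE TRAIL+ microglia-like cells and 8 of 721 EAE TRAIL+ Cd74-high cells. So few cells cannot show whether the genes avoid each other there.

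Oxidase levels in cells with and without each gene were compared within a gate. Cyba was higher in cells with Arg1 in both gates, at 1386 against 995 CPM in TRAIL+ and 989 against 653 CPM in TRAIL-, and in cells with Nos2, at 1688 against 1082 and 1168 against 659 CPM. Cybb was higher in cells with Acod1 in both gates, at 2468 against 1764 CPM in TRAIL+ and 2099 against 1571 CPM in TRAIL-. It was also higher in cells with Nos2, at 2574 against 1824 CPM in TRAIL+ and 2192 against 1755 CPM in TRAIL-. Cyba was likewise higher in cells with Acod1, at 1331 against 1142 CPM and 811 against 667 CPM, with intervals that overlap. Ncf1 was also higher in cells with Acod1, at 379 against 114 CPM and 260 against 157 CPM. In cells with Arg1, Ncf1 was at 231 against 146 CPM in TRAIL+ and at 121 against 233 CPM in TRAIL-, which are opposite directions. Beside these, cells with Arg1 in TRAIL+ had 8380 CPM of microglia markers against 13191 CPM in the others, and in TRAIL- 3772 against 2880 CPM. Cybb in cells with Arg1 also went in opposite directions, at 1633 against 2314 CPM in TRAIL+ and 2004 against 1761 CPM in TRAIL-. Cells with Acod1 had more of the neutrophil markers in both gates, 462 against 291 CPM in TRAIL+ and 863 against 358 CPM in TRAIL-, and the part of these markers was not tested.

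The other comparison of the study is EAE with naive. In TRAIL+ microglia-like cells Cyba was 1.38-fold higher in EAE (1.23 to 1.54), Ncf1 was 0.955 times the naive level (0.872 to 1.05) and Ncf4 1.17 times (0.782 to 1.73). Cybb was 2.88-fold higher (2.07 to 4.02), from 61 UMIs in 27 of 1863 naive cells to 101 UMIs in 40 of 910 EAE cells. Acod1 was 8.69-fold higher (3.27 to 29.1), from 5 UMIs to 25. The 5 highest cells gave 52.5% of the naive and 44.6% of the EAE Cybb UMIs, so these ratios rest on a small number of cells. With cells picked by markers per barcode the Cybb ratio was 12.6.

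Of the 7 members only Cyba and Ncf1 met the minimums there, and neither was 2-fold apart, where 1.13% of all genes were at least 2-fold higher and 0.157% lower. TMM scaling shifted all genes by -0.12 on the log2 scale, and with it 23 genes were higher and 16 lower in place of 36 and 5, and Cyba stood at 1.27. In the TRAIL- gate Cyba was 1.66-fold higher in EAE (1.19 to 2.29) and Ncf1 0.993 times the naive level. Cybb went from 1 UMI in 318 naive cells to 20 UMIs in 115 EAE cells, a ratio of 48.7 in counts too few to size it.

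The Cd74-high cluster was mostly EAE cells, and it has no cell type name here, so both clusters were also joined. Then in TRAIL+ Cybb was 4.37-fold higher in EAE (3.39 to 5.70), Acod1 20.1-fold (8.35 to 63.2), Cyba 1.499-fold (1.36 to 1.65) and Ncf1 1.04-fold (0.965 to 1.12). Of the 3 members at the minimums, 1 was at least 2-fold higher, against 2.46% of all genes, and 0 were lower, against 0.499%. The higher member, Cybb, met the minimum CPM only through the EAE side, so nothing is read from that count. Joining thus raised the ratios of Cybb and Acod1 and left that of Ncf1 near 1.

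Within EAE the Cd74-high cells differed from the microglia-like cells in the same direction in both gates for Cybb and Acod1. Cybb was 2.78-fold higher in TRAIL+ (2.20 to 3.55) and 3.04-fold in TRAIL-, and Acod1 3.80-fold and 7.68-fold higher. Monocyte markers summed to 788 CPM in the Cd74-high and 689 CPM in the microglia-like cells of TRAIL+, and to 1247 and 602 CPM in TRAIL-, and their part was not tested. Of 3 members at the minimums in TRAIL+, 1 was at least 2-fold higher and 0 lower, against 1.88% and 0.407% of all genes. Cyba was 1.19-fold and 1.61-fold higher, and Ncf1 1.19-fold higher in TRAIL+ but 0.884 times in TRAIL-.

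Between the gates of EAE, Cd74-high cells of TRAIL+ had 2.07-fold less Acod1, 1.84-fold less Cybb and 1.37-fold less Cyba than those of TRAIL-, and 1.27-fold more Ncf1 (1.07 to 1.51). The summed monocyte markers of these cells were 788 CPM in TRAIL+ and 1247 CPM in TRAIL-, and the T or NK cell markers 42.4 and 244 CPM, and their part was not tested. Of 4 members at the minimums 0 were at least 2-fold higher and 1 lower, against 1.54% and 3.42% of all genes. With a finer clustering of the cells the Cybb ratio was 1.16 (0.891 to 1.53), on the other side of 1. Microglia-like cells of the 2 gates had Cyba at 0.989 and Ncf1 at 0.943 times each other. Acod1 was thus lower in TRAIL+ in the monocyte-like and Cd74-high cells, and in microglia-like cells, with 25 and 3 UMIs, no difference was detectable.

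Naive monocyte-like cells were too few and too mixed to serve as a firm reference. Their neutrophil markers summed to 42846 CPM in TRAIL- and 53705 CPM in TRAIL+, against 596 and 340 CPM in EAE, and 10 of the 20 naive TRAIL+ cells lay in the sub-cluster with microglia markers. A single cell gave 75 of the 148 Cybb UMIs of naive TRAIL-, and the 5 highest cells gave 79.7% of them and 67.2% in naive TRAIL+. In TRAIL+, EAE over naive, Arg1 was at least 34.3-fold higher and Nos2 at least 3.54-fold higher against a floor of 3 UMIs per library, Cyba was 2.71-fold higher, Cybb 1.46-fold higher and Ncf1 2.10-fold lower. Acod1 was 1.95-fold higher with an interval that reaches 1 (0.805 to 6.18). Of the 7 members at the minimums 3 were at least 2-fold higher and 1 lower, against 18.9% and 13.3% of all genes. Arg1 and Nos2 met the minimums only through the EAE side, so nothing is read from that count. The part of the neutrophil and microglia markers in these ratios was not tested.

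Other genes of the same pathways were read from 8 fixed lists. Between the EAE gates of monocyte-like cells, of 13 arginine and polyamine genes 7 met the minimums, 1 was at least 2-fold higher in TRAIL+ and 0 lower. That gene was Slc7a2, which carries arginine into the cell, at 166 CPM in TRAIL+ and 45.7 CPM in TRAIL- (3.63-fold, 2.29 to 5.89). Odc1, which turns ornithine into putrescine, was 1.55-fold higher, and Ass1, which rebuilds arginine from citrulline, was at 221 and 325 CPM. Of 10 genes of nitric oxide synthesis and its cofactor, 4 met the minimums and 1 was lower: Gch1, for the first enzyme of tetrahydrobiopterin synthesis, at 65.8 and 137 CPM.

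Of 13 other oxidase genes 6 met the minimums. Hvcn1, for the proton channel that balances the oxidase's charge, was 3.33-fold higher in TRAIL+, and Rac1, a small GTPase that can activate the oxidase, was at 495 CPM in TRAIL+ and 635 CPM in TRAIL-. Of 17 genes of itaconate, succinate and the NRF2 response 13 met them, with 1 higher (Gclc, 2.45-fold) and 1 lower (Txnrd1, 2.07-fold). None of the 9 measured detoxification genes and none of the 11 measured hypoxia and glycolysis genes was 2-fold apart, with list medians of -0.12 and -0.38 on the log2 scale beside -0.03 for all genes.

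Of 13 measured genes of the inflammatory list 2 were at least 2-fold higher in TRAIL+ and 4 lower, beside 5.51% and 6.33% of all genes. Cxcl9 and Cxcl10, chemokines induced by interferon gamma, were 4.39-fold and 3.54-fold lower, and Irf1 3.28-fold lower, while Il1a was 3.46-fold higher and Tnf 2.03-fold higher. Of 9 measured genes of alternative activation 1 was higher, Spp1 (osteopontin), at 1633 and 402 CPM, and 2 were lower, Ccl17, at 2.63 and 155 CPM, and Ccl22, at 0 and 109 CPM. These 2 met the minimum CPM only through the TRAIL- side, so nothing is read from their count. Ccl17 and Ccl22 are ligands of the receptor CCR4 that mature dendritic cells also make. The list medians were -0.27 and 0.17 on the log2 scale.

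Against microglia-like cells of EAE TRAIL+, the monocyte-like cells had 6 of 9 measured detoxification genes and 9 of 10 hypoxia and glycolysis genes at least 2-fold higher, where 17% of all genes were. The list medians were 1.23 and 2.08 on the log2 scale beside 0.01 for all genes. The minimum CPM is a mean of both sides, so a gene can meet it through the monocyte-like side alone. Within TRAIL+ microglia-like cells, EAE over naive, 7 genes of each list met it. These counts thus show no more than the levels do. Prdx5 was 13.4-fold, Prdx6 8.97-fold and Txn1 17.6-fold higher, and Vegfa 31.7-fold. Among the arginine genes Ass1 was at 221 against 0.565 CPM and Arg2 at 92.2 against 1.13 CPM. None of the 6 other oxidase genes measured was 2-fold apart: Rac2, the GTPase that activates it in blood cells, was 1.24-fold higher, so the oxidase genes at least 2-fold apart were Cybb, Cyba and Ncf1.

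In TRAIL+ microglia-like cells, EAE over naive, 0 of the 6 other oxidase genes measured was 2-fold apart, with a median of 0.05 on the log2 scale. Rac1 was 0.651 times the naive level.

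Genes most like each member were ranked by fixed rules and are descriptions of these cells. In EAE TRAIL+ monocyte-like cells, the genes with the highest ratio in the 60 cells with Arg1 over the 73 without were Spp1 (6.90), Rgcc (6.65), Chil3 (5.37), Svil (5.29) and Fn1 (5.07), of which Chil3 and Fn1 are in the marker list that named the cluster. For Nos2 in EAE TRAIL- they were Inhba (5.19), Hivep3 (4.70), Ly6i (3.15), Rab32 (2.61) and Cd9 (2.59). For Acod1 in EAE TRAIL- they were Azi2 (8.70), Kmt5b (7.11), Csf1 (6.55), Rest (5.05) and Wdr33 (4.81).

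For the oxidase genes likeness was Pearson's r of log2(CPM + 10) over 21 groups of cells, each 1 cell class in 1 library, which share libraries and depth. Cybb was most like AB124611 (r = 0.967), then Ms4a6c, Pilra, Lyz2 and Pirb. Ncf1 was most like Tlr13 (0.976), then Tnfaip8l2, Tnfsf9, Il10ra and Fcgr3, and Ncf4 most like Hk3 (0.964), then Csf2rb, Dok3, Arrdc4 and Rac2. Cyba was most like Crlf2 (0.908), then Il4ra, Pold4, Prkx and Cmtm7. No gene was shared between these 4 lists of 5.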

How the data were processed

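The 4 deposited tables, 1 per library, gave UMI counts per barcode and gene. Per the submitters' processing notes, Bowtie and GRCm38 were used; the sources used here do not give the Bowtie version, annotation or strand setting. The counts were deposited by the authors unscaled, and the lowest listed barcode total was 100. Barcodes with at least 500 UMIs and at most 20% mitochondrial counts were kept, 7899 of 12987. Depth per library was 2856696 to 3984975 UMIs. Counts scaled to 10000 per barcode, 2000 variable genes, 30 components, 15 neighbours and Leiden resolution 1 gave clusters (scanpy 1.11.5), named from 17 marker lists. The 7 genes and the listed pathway genes were left out of the clustering. Scrublet called 77 barcodes, which were kept.

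Counts were summed per class and library and given as CPM with exact 95% Poisson intervals. Ratios have exact intervals from the split of the counts, and shares have Clopper-Pearson intervals. With 1 library per group there was no test. Background shares count genes with at least 20 UMIs over both sides and a mean of 50 CPM, at least 2-fold apart. On simulated counts of 3161 genes for the monocyte-like comparison of the gates, 4-fold changes gave a median ratio of 4.10, and 0.507% of unchanged genes passed 2-fold.

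Named were the 7 genes in groups of at least 20 cells (the 17 EAE TRAIL+ border-macrophage-like and 18 naive TRAIL- monocyte-like cells are given with their cell number), for each pathway list up to 3 genes farthest apart each way, and the 5 genes most like each member. Members and lists were chosen with earlier results of these data known. Alternatives were edgeR 4.0.16 TMM and DESeq2 1.42.0 size factors, other filters, resolution 2 and a marker gate. Some genes and 1 motif of the lists are not reported here.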

Additional observations from a re-analysis of the deposited data

Results flagged for a closer look

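Barcodes left out by the filters also carried these genes in EAE. In EAE TRAIL+ they held 26 Arg1 UMIs (116 CPM), where those of naive TRAIL+ held 0. In EAE TRAIL- they held 20 Acod1 UMIs (65.1 CPM), where those of naive TRAIL- held 0. The same barcodes held 60 Cybb UMIs (195 CPM), against 4 (11.1 CPM) in naive TRAIL-.

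Cyba, for p22phox, stood on opposite sides of 1 between the EAE gates in different cells. TRAIL+ over TRAIL- was 1.63 in monocyte-like cells and 0.731 in Cd74-high cells. The difference between these ratios was not tested.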

How the results depend on the processing

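No paired analysis was possible because each group is 1 library. No result had a test, so an alternative counts as moving a ratio or share when it leaves its counting interval and a gene count when it differs by over 1.5 times. None of the 33 ratios moved with DESeq2 size factors, at least 1000 UMIs, at most 10% mitochondrial counts or without Scrublet calls. TMM moved 2 of 33 ratios, Leiden resolution 2 moved 7 and reversed 1, and the marker gate moved 7 and left 19 within their intervals. The TMM scaling shifted the median of all genes by -0.12 and -0.24 on the log2 scale in microglia-like cells, EAE over naive, TRAIL+ and TRAIL-, and by 0.56 in TRAIL+ monocyte-like cells.

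At Leiden resolution 2, EAE over naive Cybb in TRAIL+ microglia-like cells was 4.03 (12.6 with the marker gate), monocyte-like over microglia-like Cybb was 27.2 in EAE TRAIL+ (21.4 with the gate) and 11.5 in EAE TRAIL- (11.4 with the gate), and the Arg1 gate ratio in EAE monocyte-like cells was 3.08. The Cybb gate ratio in Cd74-high cells reversed from 0.543 to 1.16, and the cause was not tested. Without the sub-cluster with microglia markers, an alternative chosen after seeing the data like those on neutrophil counts and sub-cluster 0, neither of which moved a ratio or share, the Arg1 and Nos2 gate ratios were 3.45 and 1.66.

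Thinning to 500 UMIs took the share of Nos2 cells with Acod1 to 7.69% in TRAIL- and 11.1% in TRAIL+, and of Arg1 cells with Acod1 to 7.50% and 13.3%. With at least 2 UMIs the last was 16.1%.

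Without the minimum CPM the genes at least 2-fold higher and lower numbered 742 and 195 in TRAIL+ microglia-like cells, EAE over naive (main 36 and 5, TMM 23 and 16), and 459 and 732 in TRAIL- (main 277 and 286, TMM 164 and 471). They numbered 524 and 556 between the monocyte-like gates (main 175 and 201), and monocyte-like over microglia-like 1083 and 2271 in EAE TRAIL+ (main 570 and 549) and 1318 and 1028 in EAE TRAIL- (main 681 and 668). For Cd74-high over microglia-like cells in EAE TRAIL+ they were 357 and 448 (main 60 and 13, with 8 lower under DESeq2 size factors). The marker gate gave no Cd74-high group. Depth limits what can be said of Nos2, Ncf4 and naive monocyte-like cells, whose counts were low.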

Other observations

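Outside the myeloid cells, Nos2 was also read in naive mice. Endothelial-like cells of naive TRAIL- held 33 Nos2 UMIs in 26 of 1154 cells (29.7 CPM), 89.2% of the 37 Nos2 UMIs of that library. Endothelial-like cells of EAE TRAIL- held 6 (10.8 CPM). In that naive library the microglia-like cells held 1 and the monocyte-like cells none.

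Pericyte-like cells of EAE TRAIL- held 17 Arg1 UMIs in 6 cells (34.5 CPM) and 25 Cybb UMIs (50.8 CPM).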
